A study of Mus musculus with 45 samples.

Results

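The Bcl2 family decides at the mitochondrial outer membrane whether a cell lives or dies, and its transcripts were followed here in mouse follicular B cells. The 10 genes were chosen by symbol from the deposited table of transcripts per 1e+06 transcripts (TPM), which holds 30317 gene symbols, and all 10 were among the 15614 symbols tested. They comprise 6 antiapoptotic genes (Bcl2, Bcl2l1, Mcl1, Bcl2a1a, Bcl2a1b and Bcl2a1d), 2 effectors (Bax and Bak1) and 2 BH3-only genes (Bcl2l11 and Bbc3). The rule for choosing them was their symbols, with no threshold on a measured value.

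All cells were splenic follicular B cells of the genotype B6.Blimp1GFP/+, in which one allele of the plasma cell regulator Blimp1 carries GFP. OP9 stromal cells, a line derived from mouse bone marrow, served as the culture layer, either unmodified or expressing the Notch ligand Delta-like 1 (OP9-DL1). Cultures received medium alone for 68 h, or for 20, 44 or 68 h either of 2 stimuli at 10 µg/mL: LPS, which signals through TLR4, or anti-IgM F(ab')2, which crosslinks the B cell receptor. The 15th group held Blimp1+ cells from OP9-DL1 cultures with LPS, for which the labels give no time. Each group had 3 libraries of polyA RNA from cells sorted for viability, 45 in all. No label says whether the replicates came from separate mice or cultures, so a p-value here measures only the spread between these libraries. No unstimulated culture was given for 20 or 44 h.

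Antiapoptotic family members hold their partners in check by binding the BH3 helix of proapoptotic ones. Bax and Bak, once released, form pores in the mitochondrial outer membrane, cytochrome c escapes, and the apoptosome activates caspases. BH3-only proteins carry stress signals to this switch: Bim (Bcl2l11) is the main mediator of the death of B cells after antigen receptor signalling without help, and Puma (Bbc3) is a p53 target that also acts after cytokine loss. Follicular B cells depend on Mcl-1 and on survival signals from the receptor for BAFF. Bcl-xL (Bcl2l1) and A1 (the Bcl2a1 genes) are known as NF-kB targets in activated B cells.

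Depth ran from 3.07 to 29.1 estimated reads in units of 1e+06 per library. In 10 libraries the actin gene Actb lay at 12355 to 85337 TPM, against 217 to 2974 TPM in the other 35. These Actb-high libraries were all 3 of OP9-DL1 with LPS at 20 h, all 3 of OP9 with anti-IgM at 20 h, and replicate 3 of 4 groups at 68 h: OP9 with LPS, with anti-IgM and unstimulated, and OP9-DL1 with LPS. Every comparison is therefore given over all 45 libraries and, where its groups allow, over the other 35. Of the 7 B cell markers none was at 0 in any library, and their sum was 0.0384 to 0.675% of all TPM. The 12 stroma markers summed to 1.41, 0.995 and 0.0992% in the 3 unstimulated OP9 libraries and to at most 0.0351% in every other library. Of the 8 T cell markers, Cd3e was at 0 in 33 libraries and Cd3d in 0, and their sum was at most 0.00211%. Of the 9 myeloid markers, the neutrophil gene S100a8 was at 0 in 44 libraries and Itgam in 0. The myeloid sum was highest in unstimulated OP9 replicates 1 and 2, at 0.0155 and 0.0164%.

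The 3 Bcl2a1 genes are near-identical copies of 1 gene, which bears on how their values can be read, so the first 120 of the 519 coding bases are shown for each, with the positions at which any copy differs in capitals.
Bcl2a1a: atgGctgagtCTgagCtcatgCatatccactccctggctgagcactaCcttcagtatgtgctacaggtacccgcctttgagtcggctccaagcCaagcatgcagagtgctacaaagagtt
Bcl2a1b: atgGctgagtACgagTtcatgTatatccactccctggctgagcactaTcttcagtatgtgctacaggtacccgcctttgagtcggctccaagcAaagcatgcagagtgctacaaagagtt
Bcl2a1d: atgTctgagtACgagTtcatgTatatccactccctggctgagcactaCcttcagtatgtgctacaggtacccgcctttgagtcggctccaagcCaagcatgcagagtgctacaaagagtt
Over the whole coding sequence (GENCODE M21, GRCm38), Bcl2a1b and Bcl2a1d differed at 6 positions, Bcl2a1a and Bcl2a1d at 7, and Bcl2a1a and Bcl2a1b at 11. Of all windows of 75 bases, the longer of the read lengths the series names, 39.8% were letter for letter the same in Bcl2a1b and Bcl2a1d. The 3 lie on chromosome 9: Bcl2a1d at chr9:88723285-88731914 on the minus strand, Bcl2a1a at chr9:88956900-88962419 and Bcl2a1b at chr9:89199209-89207827, both on the plus strand. How the estimated reads were split among them is uncertain, and their sum, with the fourth copy Bcl2a1c, was tested beside them. Bcl2a1b exceeded Bcl2a1d by a median of 1.12 times, with 42 of 45 libraries within 1.5-fold of equality. Bcl2a1a was listed at 0 in 16 libraries and made up a median of 0.187% of the sum.

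**Figure D1:**
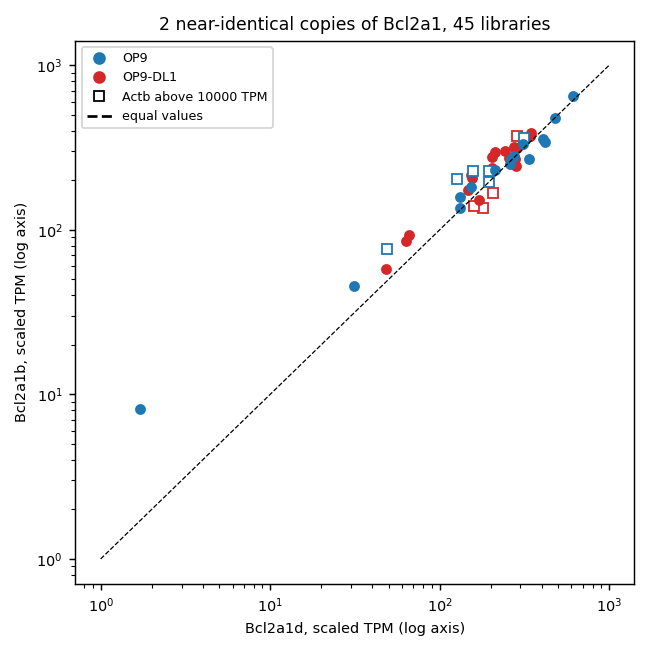
Scaled TPM of Bcl2a1d (x axis) and Bcl2a1b (y axis), both on log axes, in each of the 45 libraries; blue points are OP9, red points OP9-DL1, open squares the Actb-high libraries and the dashed line equal values. In 42 of the 45 libraries the points lie within 1.5-fold of the line. The lowest, unstimulated OP9 replicate 1, is the farthest from it, at 1.72 and 8.17, a ratio of 4.76.

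Short promoter stretches are shown for the members whose windows hold the core motif of RBPJ, the DNA-binding partner of Notch, or of FOXO, which antigen receptor signalling restrains. The windows ran from 250 bases before to 50 after each RefSeq start (15 windows for the 10 genes), and each stretch is 30 bases on the gene's own strand with the match in capitals, read as the reverse complement where the motif lies on the other strand.
Bcl2a1a (GRCm38.p6, chr9:88956730-88956759, plus strand): agggcctctagTTCCCACctacttagaggg
Bcl2a1b (GRCm38.p6, chr9:89199039-89199068, plus strand): agggcctctagTTCCCACctacttagaggg
Bcl2a1d (GRCm38.p6, chr9:88732005-88732034, minus strand): agagcctctagTTCCCACctacttagaggg
Bcl2l11 (GRCm38.p6, chr2:128125800-128125829, plus strand): aagacactaggGTAAACAcgccggggtggg
Bbc3 (GRCm38.p6, chr7:16310083-16310112, plus strand): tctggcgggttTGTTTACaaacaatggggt
The letters GTGGGAA (RBPJ), searched on both strands, were found in 3 of the 15 windows, all of them of Bcl2a1 copies. They were found in 6.38% of all 32851 promoter windows of the same length. The 3 stretches are near-identical copies and so are not independent matches. The match began 179, 223 and 173 bases before the start in Bcl2a1a, Bcl2a1b and Bcl2a1d. The letters GTAAACA (FOXO) were found in Bcl2l11 and Bbc3, in 2 of the 15 windows, and in 3.65% of all windows. A match to the NF-kB motif was found in Bcl2l1 and Bbc3, in 2 of the 15 windows, and in 8.46% of all windows. No window of a Bcl2a1 copy held one. These matches describe the windows alone, since no file measures the binding of a factor.

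**Figure D2:**
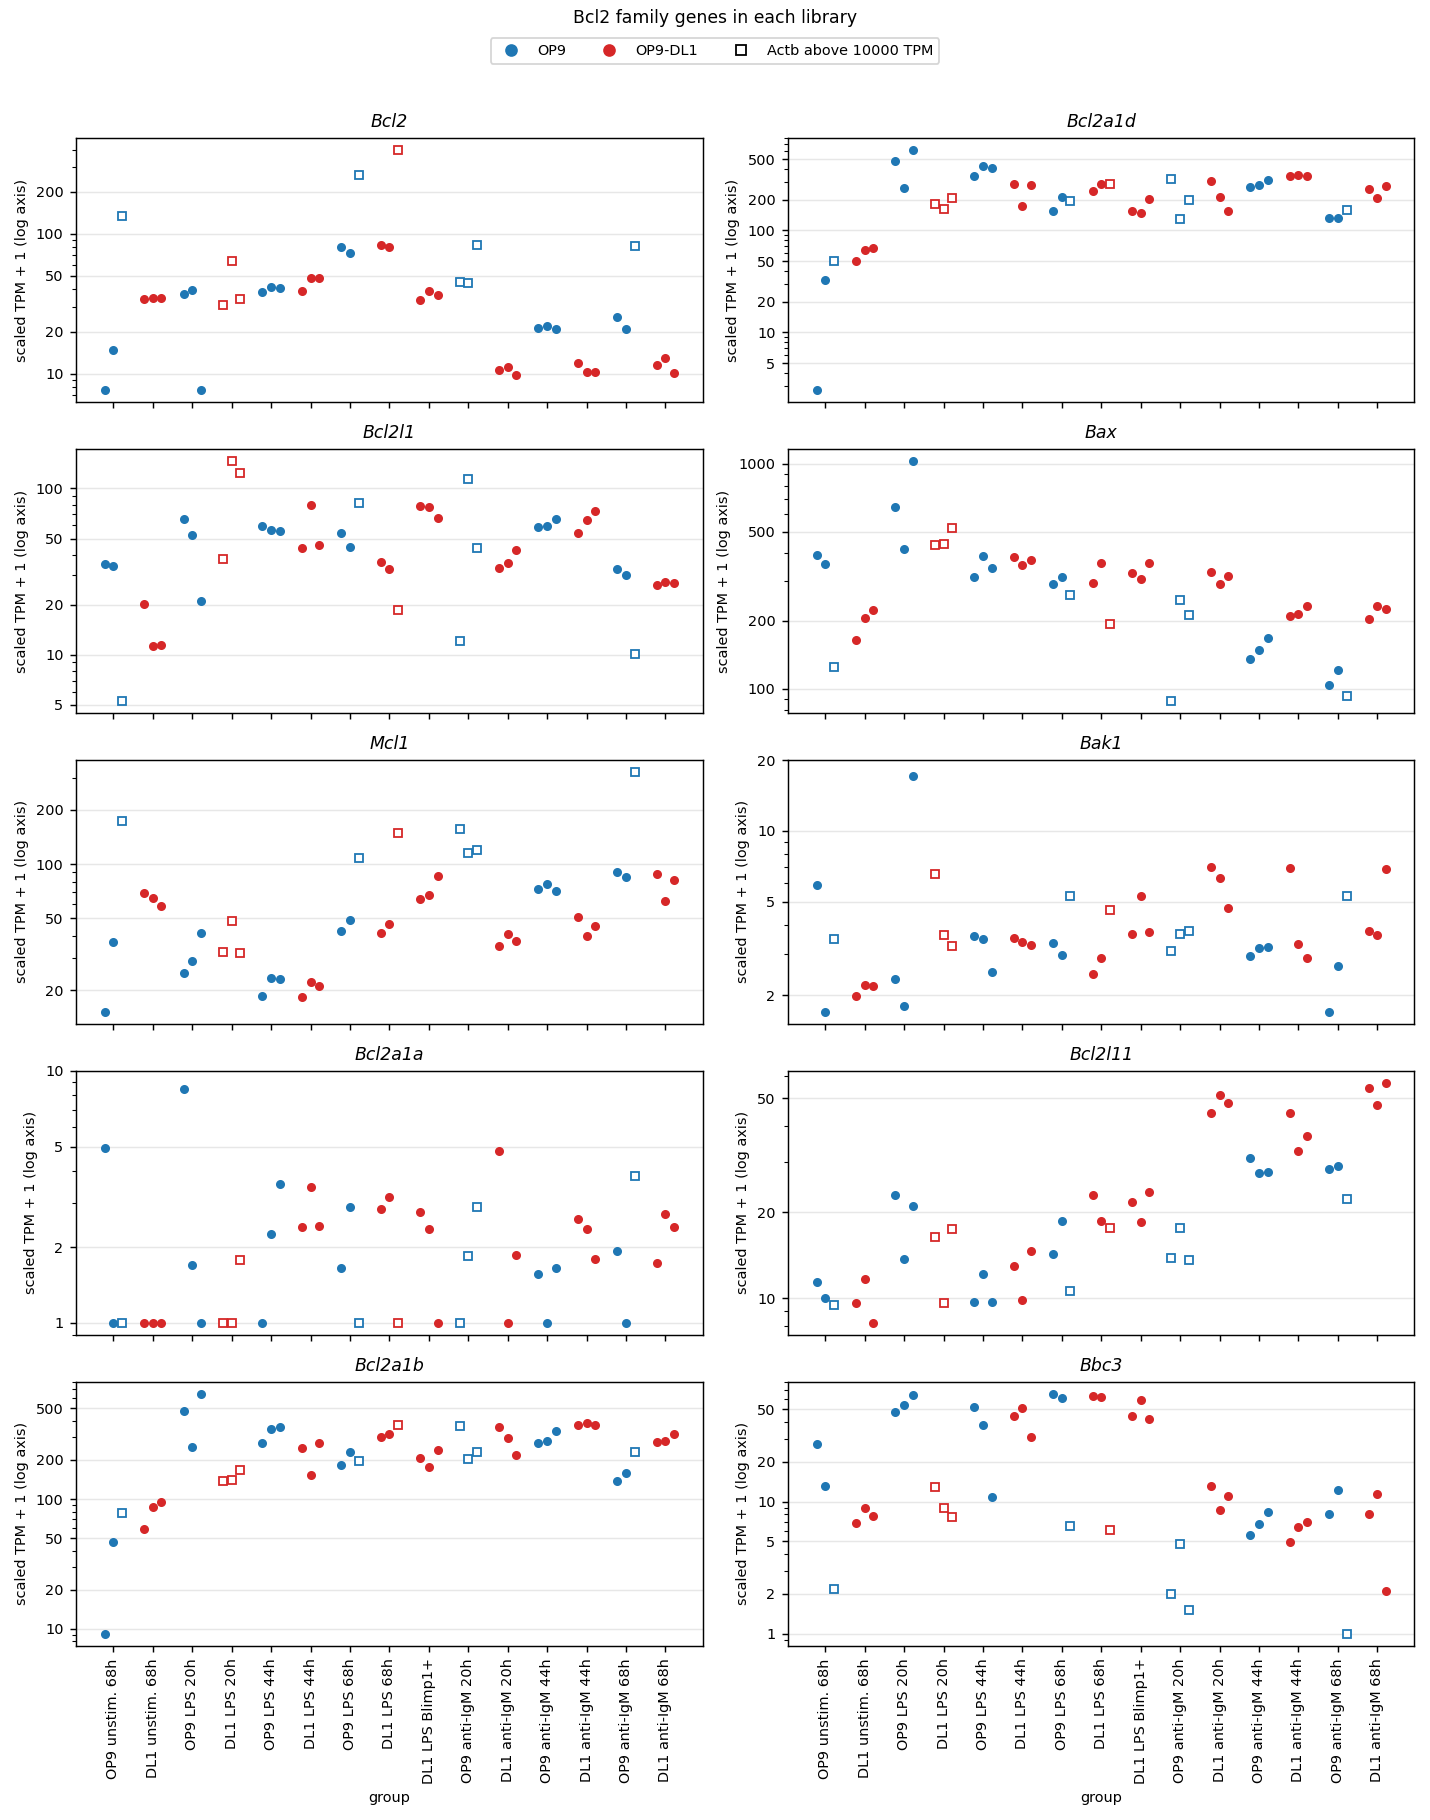
Scaled TPM plus 1 (y axis, log) of the 10 genes in every library, 1 panel per gene, by group (x axis); blue points are OP9, red points OP9-DL1 and open squares the Actb-high libraries. Bcl2l11 is highest with anti-IgM on OP9-DL1, Bbc3 lies at 29.99 or more in the libraries with LPS that are not Actb-high, except 1 at 9.89, and Bcl2 is near 10 with anti-IgM on OP9-DL1.

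Levels were compared on the scale of TPM divided by a size factor of the library (scaled TPM), which is per transcript length, so genes can be set side by side. The median over the 45 libraries was 291 for Bax, 246 for Bcl2a1b, 211 for Bcl2a1d, 48.3 for Mcl1, 43.1 for Bcl2l1, 34 for Bcl2, 17.5 for Bcl2l11, 9.89 for Bbc3, 2.47 for Bak1 and 0.790 for Bcl2a1a. Bax transcripts thus far exceeded those of Bak1, the other pore former. Bak1 and Bcl2a1a passed by limma at an adjusted p below 0.05 in none of the 26 comparisons over all libraries and none of the 24 over the 35, and over all libraries 1 and 0 of their differences had an unadjusted p below 0.05. In fits to the compared groups alone, Bak1 passed with anti-IgM on OP9-DL1 and in Blimp1+ cells against unstimulated cells (adjusted p = 0.0456 and 0.0197), and Bcl2a1a with anti-IgM on OP9-DL1 (0.0147). Of all genes, the fit with anti-IgM called 24.5% and that of Blimp1+ cells 32.9%.

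**Figure D3:**
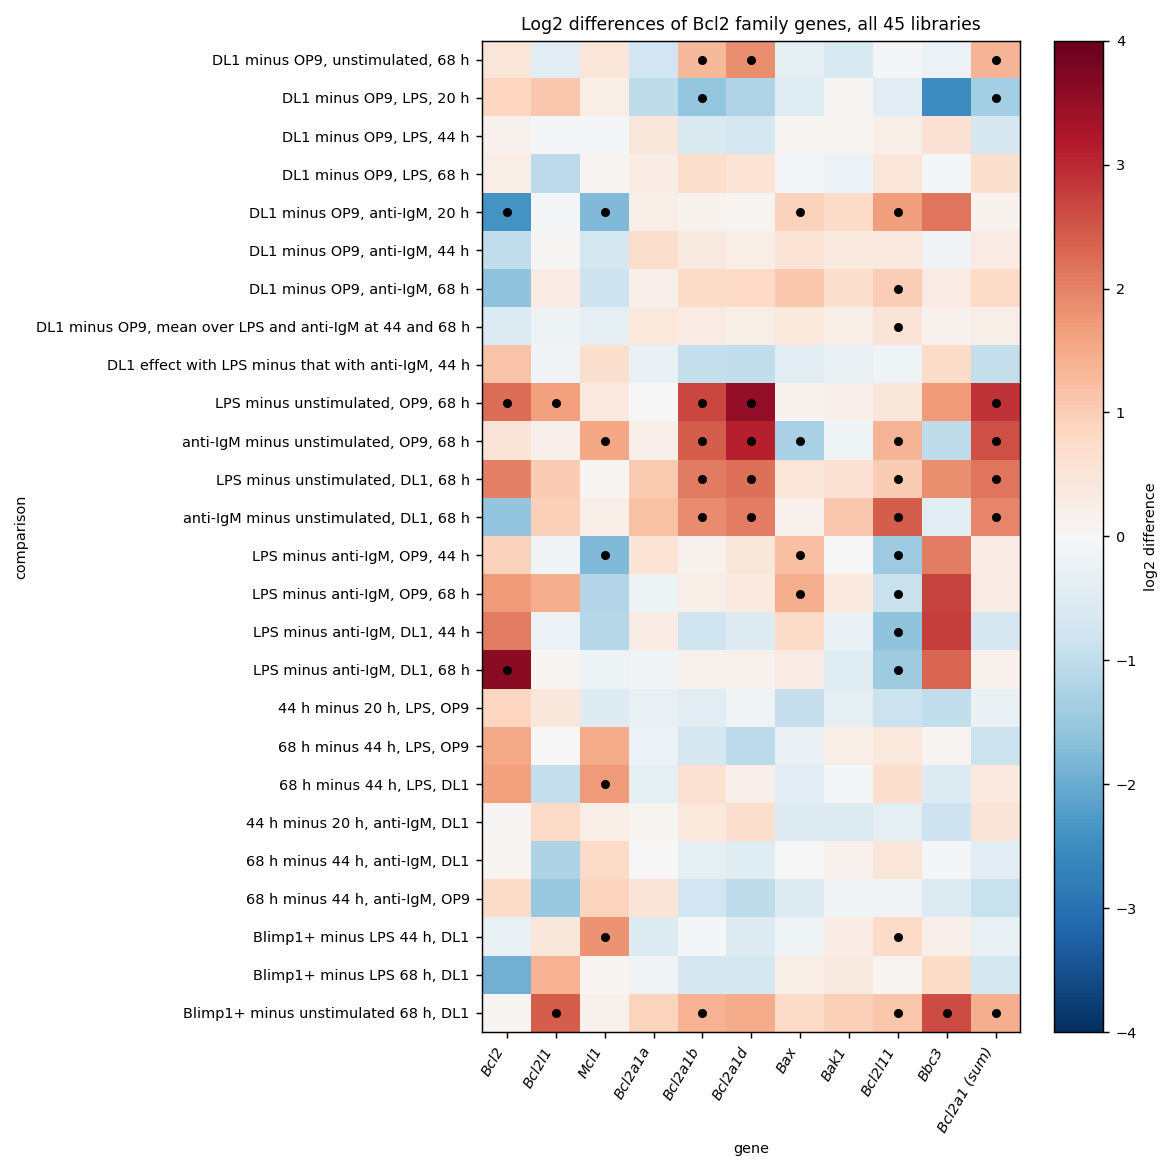
Log2 difference (colour scale, red higher and blue lower in the first-named group) for each of the 10 genes and the summed Bcl2a1 copies (columns) in the 26 comparisons (rows) over all 45 libraries; dots mark an adjusted p below 0.05. Dots gather in the rows of stimulated against unstimulated cells and in the column of Bcl2l11, which passed in 12 of the 26 rows.

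The stimuli were compared first, since these comparisons need neither the unstimulated OP9 group nor the 20 h groups in which whole groups were Actb-high. Bcl2l11, which encodes Bim, was lower with LPS than with anti-IgM on both stromas at 44 and 68 h, by 1.87- to 3.05-fold. Bax was higher with LPS on OP9 at both times, Mcl1 was lower with LPS on OP9 at 44 h, and Bcl2 was higher with LPS on OP9-DL1 at 68 h. Bbc3, which encodes Puma, was 4.12 to 6.83 times as high with LPS on the fitted scale; it did not pass over all libraries and passed in all 4 comparisons over the 35. In all, 8 of 40 tests of a member passed, against 4.97% of the tests of all genes, and 18 of 40 against 10.8% over the 35 libraries.

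Bcl2l11 was 30.02, 26.3 and 26.6 scaled TPM with anti-IgM on OP9 at 44 h and 8.68, 11.1 and 8.73 with LPS. On OP9-DL1 at 44 h it was 43.3, 31.7 and 35.8 with anti-IgM and 12, 8.86 and 13.6 with LPS. The libraries of the 2 stimuli did not overlap on either stroma, with every anti-IgM library above every LPS library. The log2 difference, LPS minus anti-IgM, was -1.45 ± 0.24 (SE; adjusted p = 8.00e-05) on OP9 and -1.61 ± 0.24 (SE; adjusted p = 2.48e-05) on OP9-DL1.

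At 68 h Bcl2l11 was 27.4, 28 and 21.2 with anti-IgM on OP9 and 13.3, 17.6 and 9.62 with LPS. On OP9-DL1 it was 53.3, 46.5 and 55.6 with anti-IgM and 21.9, 17.7 and 16.6 with LPS. Again no LPS library reached an anti-IgM library on the same stroma. The log2 difference was -0.90 ± 0.24 (SE; adjusted p = 0.0226) on OP9 and -1.43 ± 0.24 (SE; adjusted p = 1.67e-04) on OP9-DL1, and over the 35 libraries it was -0.81 and -1.36, both past the threshold. The calls on OP9 at 44 h and on OP9-DL1 at both times held in all 10 other settings (other scalings, filters, a smaller pseudocount, the authors' log2 table, a replicate block and smaller fits) and when each of the 6 libraries was left out in turn. The call on OP9 at 68 h was lost without LPS replicate 1 or 3 or anti-IgM replicate 1 or 2 (adjusted p = 0.0731 to 0.176) and with TPM as deposited, without size factors (adjusted p = 0.429), with the authors' log2 table (0.434) and in the fit to the compared groups alone (0.407).

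Bbc3 showed the opposite order. With LPS at 44 h it was 51.2, 37 and 9.89 on OP9 and 43.8, 50.3 and 29.99 on OP9-DL1. With anti-IgM at 44 h it was 4.54, 5.71 and 7.29 on OP9 and 3.95, 5.42 and 6.04 on OP9-DL1. Every LPS library lay above every anti-IgM library on the same stroma, although OP9 replicate 3 with LPS was close to them. The log2 differences of 2.04 ± 0.87 (SE; adjusted p = 0.171) and 2.77 ± 0.87 (SE; adjusted p = 0.0906) did not pass over all libraries. In fits to the compared groups alone both passed (adjusted p = 0.0386 and 0.00125). Those fits called 32.1% of all genes on OP9 and 15.4% on OP9-DL1.

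At 68 h replicate 3 of 3 of the 4 groups was Actb-high, and in those Bbc3 was low: it was 64.6, 60.3 and 5.57 with LPS on OP9, 62.1, 60.6 and 5.14 with LPS on OP9-DL1 and 7.0, 11.2 and 0 with anti-IgM on OP9. With anti-IgM on OP9-DL1, where no library was Actb-high, it was 7.10, 10.3 and 1.11, so that replicate 3 was low there as well. The groups overlapped on both stromas, and the log2 differences were 2.69 ± 0.87 (SE; adjusted p = 0.0752) on OP9 and 2.32 ± 0.87 (SE; adjusted p = 0.145) on OP9-DL1 over all libraries. Over the 35 libraries the 4 differences of Bbc3 were 2.09 ± 0.47 (SE; adjusted p = 0.00177) and 2.80 ± 0.47 (SE; adjusted p = 1.54e-04) at 44 h on OP9 and OP9-DL1. They were 2.70 ± 0.58 (SE; adjusted p = 0.00303) and 3.45 ± 0.53 (SE; adjusted p = 5.12e-05) at 68 h, so that all 4 passed. With the replicate number as a block the difference on OP9 at 68 h also passed (adjusted p = 0.0174).

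Among the antiapoptotic genes, Bcl2, the founder of the family, was 10.5, 11.8 and 9.13 with anti-IgM on OP9-DL1 at 68 h and 82.1, 79.8 and 395 with LPS. All LPS libraries were higher, and the Actb-high replicate 3 was 4.88 times the mean of the other two. The log2 difference of 3.60 ± 0.67 (SE; adjusted p = 5.75e-04) became 2.84 ± 0.39 (SE; adjusted p = 1.26e-05) over the 35 libraries, and the fit to the compared groups alone did not call it (adjusted p = 0.0854). On OP9-DL1 at 44 h Bcl2 was 10.9, 9.31 and 9.29 with anti-IgM and 38.2, 47.1 and 47 with LPS, again without overlap. That difference was 2.06 ± 0.67 (SE; adjusted p = 0.108) over all libraries and passed over the 35 (2.07, adjusted p = 1.63e-04). On OP9 at 44 h it was 20.2, 20.8 and 19.8 with anti-IgM and 37.6, 40.4 and 39.9 with LPS, without overlap and with a difference of 0.92 ± 0.67 (SE; adjusted p = 0.551). Fits to the compared groups alone called Bcl2 at 44 h on both stromas (adjusted p = 6.16e-04 on OP9 and 5.65e-04 on OP9-DL1), beside 32.1% and 15.4% of all genes. On OP9 at 68 h it was 24.3, 19.7 and 81.5 with anti-IgM and 79.4, 71.4 and 261 with LPS, a difference of 1.71 ± 0.67 (SE; adjusted p = 0.164) that passed over the 35 libraries (1.75, adjusted p = 0.00994).

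Mcl1, whose short-lived product B cells need at most stages, differed between the stimuli in the same direction as Bcl2l11. On OP9 at 44 h it was 71.8, 76.4 and 69.6 with anti-IgM and 17.6, 22.4 and 21.9 with LPS, with no overlap and a log2 difference of -1.77 ± 0.52 (SE; adjusted p = 0.0252). The call was lost when each one of the 6 libraries was left out in turn (OP9 with anti-IgM or LPS at 44 h, replicates 1, 2 and 3; adjusted p = 0.0619 to 0.101), with a log2 difference of -1.83 to -1.67. On OP9-DL1 at 44 h Mcl1 was 49.9, 38.9 and 44.3 with anti-IgM and 17.4, 21.3 and 20.04 with LPS, a difference of -1.14 ± 0.52 (SE; adjusted p = 0.381) that the fit to these groups alone called (adjusted p = 0.00396). Over the 35 libraries Mcl1 was lower with LPS in all 4 comparisons, by 0.81 to 1.74 on the log2 scale (adjusted p = 2.31e-06 to 0.0491). Bcl2l1 and the summed Bcl2a1 copies passed in none of the 4 comparisons in either fit: Bcl2l1 differed by -0.22 to 1.44 and the Bcl2a1 sum by -0.66 to 0.32. In the fit to the compared groups alone Bcl2a1d passed on OP9 at 44 h (adjusted p = 0.0287).

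Bax, the more abundant pore former, was 135, 148 and 166 with anti-IgM on OP9 at 44 h and 313, 387 and 343 with LPS. At 68 h it was 103, 119.8 and 91.4 and 291, 312 and 259. Every LPS library was higher than every anti-IgM library at the same time, with log2 differences of 1.21 ± 0.32 (SE; adjusted p = 0.0130) at 44 h and 1.45 ± 0.32 (SE; adjusted p = 0.00403) at 68 h. The 44 h call was lost without LPS replicate 2 or anti-IgM replicate 1 (adjusted p = 0.0603 to 0.0655), and both were lost with TPM as deposited (adjusted p = 0.294 and 0.0588) and with the authors' log2 table (0.225 and 0.0708). Quantile normalization ended the 44 h call (0.115) and the fit to the compared groups alone the 68 h call (0.0842). On OP9-DL1 the difference was 0.76 ± 0.32 (SE; adjusted p = 0.317) at 44 h and 0.32 ± 0.32 (SE; adjusted p = 0.635) at 68 h, and the former passed over the 35 libraries (adjusted p = 0.0108) and in the fit to its groups alone (0.00176). By comparison, the members that passed on OP9 at 44 h were 3 of 10 against 8.35% of all genes, and 4 of 10 against 19.5% over the 35 libraries. At 68 h they were 2 of 10 against 4.41% of all genes, and 5 of 10 against 7.69% over the 35 libraries. On OP9-DL1 at 44 h they were 1 of 10 against 2.84% of all genes, and 5 of 10 against 8.42% over the 35 libraries. At 68 h they were 2 of 10 against 4.27% of all genes, and 4 of 10 against 7.57% over the 35 libraries. All libraries are bulk RNA, so fewer cells of a kind and less RNA per cell cannot be told apart in any of these values. B cell markers were lower with LPS on OP9 at 44 h (3 of 7), and none of the 7 passed in the other 3 comparisons over all libraries. Over the 35, Ms4a1 was lower with LPS on OP9-DL1 at 44 h. The part of the B cell marker level in these results was not tested.

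**Figure D4:**
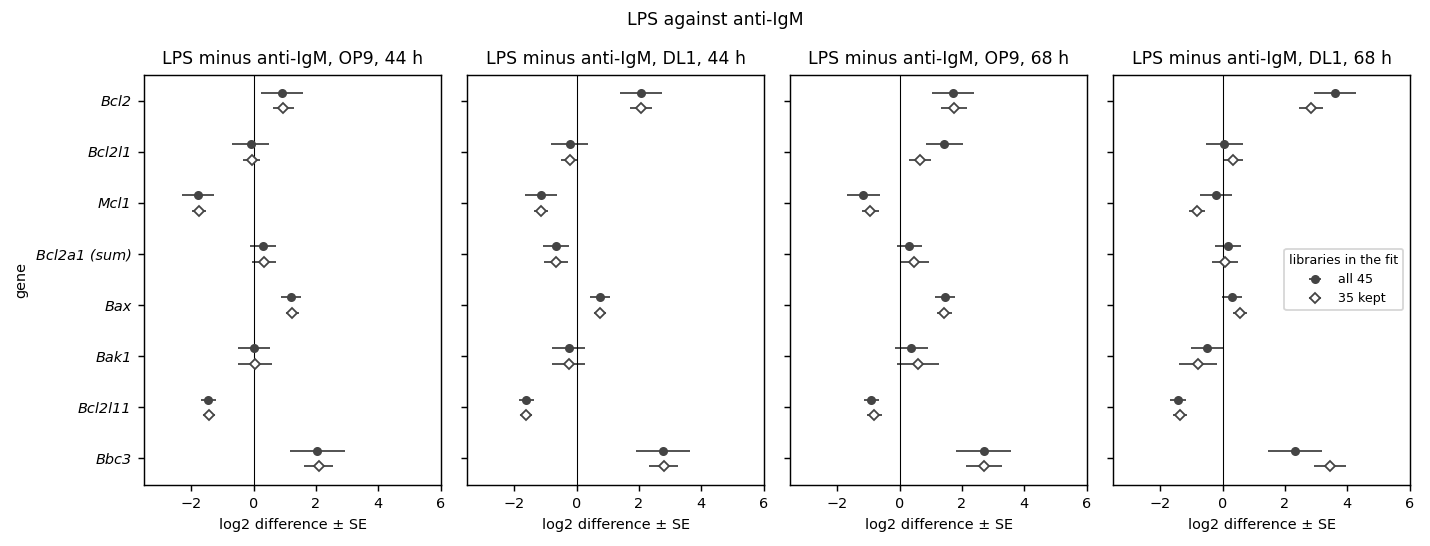
Log2 difference, LPS minus anti-IgM, ± SE (x axis) for 7 genes and the summed Bcl2a1 copies (y axis), in 4 panels for OP9 and OP9-DL1 at 44 and 68 h; filled circles are fits to all 45 libraries and open diamonds to the 35 that are not Actb-high. Bcl2l11 lies left of 0 and Bbc3 right of 0 in every panel.

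The balance of Bim to Bcl2 was described as the log2 ratio of the 2 scaled TPM values (each plus 1) within a library, which does not depend on the size factor except through the added 1. With anti-IgM on OP9-DL1 it was 2.18 ± 0.12 (SD, n = 3) at 20 h, 1.80 ± 0.12 at 44 h and 2.20 ± 0.30 at 68 h. These were the only 3 groups in which Bcl2l11 exceeded Bcl2 by more than 1 log2 unit in every library. With anti-IgM on OP9 the ratio was -1.88 ± 0.66 at 20 h, where all libraries were Actb-high, 0.43 ± 0.11 at 44 h and -0.41 ± 1.29 at 68 h, or 0.33 ± 0.23 (n = 2) without the Actb-high replicate. With LPS at 44 h it was -1.95 ± 0.16 on OP9 and -1.87 ± 0.37 on OP9-DL1. At 20 h with LPS it was -0.25 ± 1.54 on OP9 and, all Actb-high, -1.54 ± 1.03 on OP9-DL1. At 68 h with LPS it was -3.03 ± 1.41 and -2.82 ± 1.45, each with 1 Actb-high library. In unstimulated cells on OP9 it was -1.26 ± 2.28, or 0.01 ± 0.79 (n = 2) without the Actb-high replicate. It was -1.83 ± 0.24 in unstimulated cells on OP9-DL1, and -0.78 ± 0.27 in the Blimp1+ cells. The step between the stimuli on OP9-DL1 at 44 h was thus 3.67 log2 units.

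The other antiapoptotic transcripts were set against Bcl2 in the same way. At 44 h on OP9-DL1 the log2 ratio of Mcl1 to Bcl2 was 2.06 ± 0.10 with anti-IgM and -1.13 ± 0.05 with LPS. The ratio of Bcl2l1 to Bcl2 was 2.55 ± 0.33 and 0.27 ± 0.41, and that of the Bcl2a1 sum to Bcl2 was 6.07 ± 0.13 and 3.35 ± 0.52. All 3 were therefore lower with LPS, and these ratios share Bcl2 as the denominator.

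**Figure D5:**
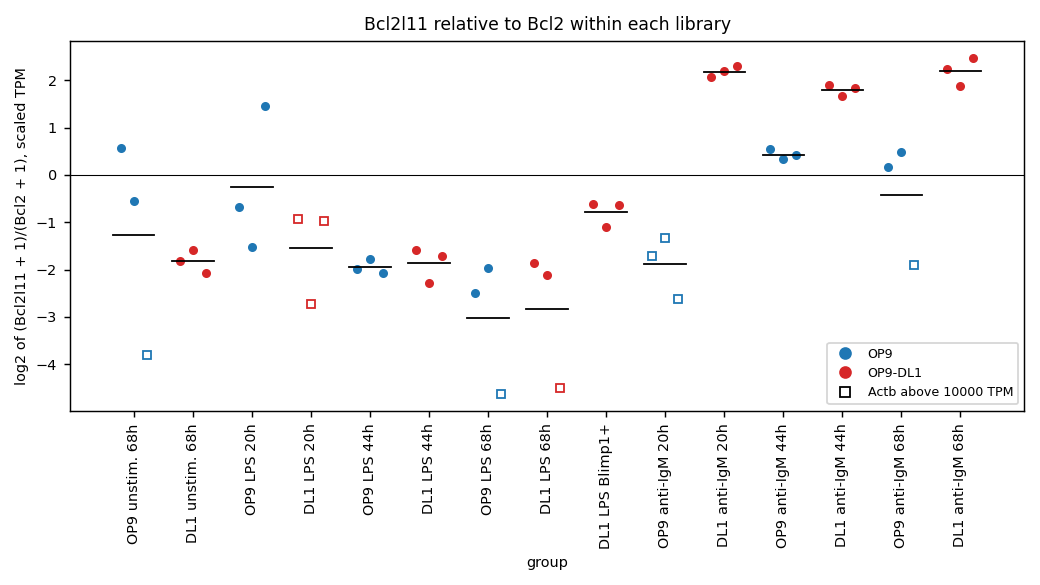
Log2 of the ratio of Bcl2l11 to Bcl2 (scaled TPM, each plus 1; y axis) in every library by group (x axis), with a bar at the group mean; blue points are OP9, red points OP9-DL1 and open squares the Actb-high libraries. The 9 libraries with anti-IgM on OP9-DL1 lie between 1.66 and 2.48, and the 12 libraries with LPS at 44 or 68 h lie at -1.59 or lower.

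Against unstimulated cells at 68 h, Bcl2a1b and Bcl2a1d rose with both stimuli on both stromas, while Bcl2a1a passed in none of the 4 comparisons (-0.02 to 1.16). Bcl2l11 rose in 3 of the 4 comparisons over all libraries and in 4 of 4 over the 35. On OP9, Bcl2 and Bcl2l1 also rose with LPS, while Mcl1 rose and Bax fell with anti-IgM. In all, 15 of 40 tests passed, and the fall of Bax was the only one below 0, against 18.2% of the tests of all genes, and 24 of 40 against 30.8% over the 35 libraries. The unstimulated OP9 libraries differed widely among themselves and held more stroma marker RNA than all others: 10 of 10 tested stroma markers were lower and 5 (LPS) or 6 (anti-IgM) of 7 B cell markers were higher in stimulated OP9 cultures. Their part in the OP9 results was not tested. The unstimulated OP9-DL1 libraries held 0.0131 to 0.0306% of TPM in stroma markers.

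The summed Bcl2a1 copies, which encode the NF-kB target A1, were 106, 149 and 159 scaled TPM in unstimulated cells on OP9-DL1, 548, 604 and 662 with LPS and 531, 485 and 594 with anti-IgM. Every stimulated library was higher than every unstimulated one. The log2 increase was 2.14 ± 0.41 (SE; adjusted p = 5.63e-04) with LPS and 1.97 ± 0.41 (SE; adjusted p = 0.00145) with anti-IgM, and both held in all 10 settings and when each library was left out in turn. The single copies gave 2.07 and 1.89 for Bcl2a1b and 2.19 and 2.03 for Bcl2a1d, all past the threshold.

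On OP9 the sum was 13.8, 77.8 and 125 unstimulated, 336, 446 and 394 with LPS and 269, 290.4 and 388 with anti-IgM. The stimulated libraries were again all higher, by 2.88 ± 0.41 (SE; adjusted p = 8.44e-07) and 2.57 ± 0.41 (SE; adjusted p = 8.50e-06). Unstimulated replicate 1, the library with the most stroma marker RNA and the least B cell marker RNA of the group, was the lowest by far. Over the 35 libraries the increases were 3.55 and 3.07. In a fit to the compared groups alone, which takes its spread from 6 libraries, no member passed in either OP9 comparison. Of all genes 10.2% passed there with LPS and 1.97% with anti-IgM. The Bcl2a1 sum had adjusted p = 0.0760 and 0.168 in these limma fits.

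Bcl2l11 was 8.65, 10.6 and 7.21 in unstimulated cells on OP9-DL1 and 10.4, 9.01 and 8.49 on OP9. All stimulated libraries at 68 h were higher than the unstimulated ones on the same stroma, except that OP9 with LPS replicate 3 lay within the unstimulated range. With anti-IgM on OP9-DL1 it was 5.41-fold higher, a log2 difference of 2.44 ± 0.24 (SE; adjusted p = 1.12e-08), and 1.36 ± 0.24 (SE; adjusted p = 3.95e-05) on OP9. With LPS the difference was 1.01 ± 0.24 (SE; adjusted p = 0.00564) on OP9-DL1, lost with TPM as deposited (adjusted p = 0.348), with the authors' log2 table (0.359) and in the fit to its groups alone (0.120). On OP9 with LPS it was 0.46 ± 0.24 (SE; adjusted p = 0.155), and 0.65 ± 0.24 (SE; adjusted p = 0.0317) over the 35 libraries. The rise with anti-IgM on OP9-DL1 held in all 10 settings and when each of its 6 libraries was left out in turn.

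Bcl2 was 33, 34 and 33.6 in unstimulated cells on OP9-DL1, between its levels with anti-IgM and with LPS. The log2 difference was -1.59 ± 0.67 (SE; adjusted p = 0.140) with anti-IgM and 2.01 ± 0.67 (SE; adjusted p = 0.0587) with LPS, and over the 35 libraries both passed, at -1.59 ± 0.35 (SE; adjusted p = 0.00130) and 1.25 ± 0.39 (SE; adjusted p = 0.0279). On OP9 unstimulated Bcl2 was 6.67, 13.7 and 132, with the Actb-high replicate 3 13 times the mean of the others. The rise with LPS on OP9 was 2.22 ± 0.67 (SE; adjusted p = 0.00996), although the groups overlapped. It was lost without LPS replicate 3 or unstimulated replicate 1 or 2 (adjusted p = 0.0572 to 0.134) and was 2.89 ± 0.43 (SE; adjusted p = 3.36e-06) over the 35 libraries.

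Mcl1 on OP9 was 14.1, 36.1 and 173 unstimulated and 89.3, 84.4 and 324 with anti-IgM. The groups overlapped, and the Actb-high replicate 3 was the highest in both. The rise of 1.56 ± 0.52 (SE; adjusted p = 0.0236) was lost without anti-IgM replicate 3 or unstimulated replicate 1 or 2 (adjusted p = 0.0843 to 0.345) and stood at 1.92 ± 0.28 (SE; adjusted p = 2.54e-06) over the 35 libraries. Bax on OP9 was 391, 358 and 123 unstimulated and 103, 119.8 and 91.4 with anti-IgM, with no overlap. The log2 difference was -1.30 ± 0.32 (SE; adjusted p = 0.00213). It was not called with TPM as deposited (adjusted p = 0.0829), with the authors' log2 table (0.107) or in the fit to its groups alone (0.278).

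Bcl2l1, which encodes Bcl-xL, was 34.3, 33 and 4.28 unstimulated on OP9 and 53.1, 43.5 and 81.1 with LPS. The groups did not overlap, and the rise of 1.65 ± 0.60 (SE; adjusted p = 0.0342) was 0.54 ± 0.34 (SE; adjusted p = 0.229) over the 35 libraries, and the call was lost without LPS replicate 1 or 3 or unstimulated replicate 3 (adjusted p = 0.0645 to 0.371). On OP9-DL1 it was 19.1, 10.4 and 10.4 unstimulated, and over the 35 libraries it rose by 1.32 with LPS (adjusted p = 0.00382) and 0.98 with anti-IgM (adjusted p = 0.0107). Over all libraries these differences were 1.03 ± 0.60 (SE; adjusted p = 0.354) and 0.96 ± 0.60 (SE; adjusted p = 0.362). Bbc3 on OP9-DL1 was 5.94, 7.98 and 6.84 unstimulated, and its difference with LPS was 1.87 ± 0.87 (SE; adjusted p = 0.212), or 2.99 ± 0.53 (SE; adjusted p = 1.75e-04) over the 35 libraries. Without LPS replicate 3 alone it also passed, at 2.98 (adjusted p = 0.0382). Other members passed over the 35 libraries but not over all 45: Bax with LPS on OP9-DL1 (0.73, adjusted p = 0.0193), Mcl1 (0.99, 0.00554) and Bbc3 (1.78, 0.0143) with LPS on OP9, and Bcl2 with anti-IgM on OP9 (1.14, 0.0351). Counted by comparison, the members that passed with LPS on OP9 were 4 of 10 against 31.1% of all genes, and 6 of 10 against 40% over the 35 libraries. With anti-IgM on OP9 they were 5 of 10 against 24.4% of all genes, and 6 of 10 against 39.2% over the 35 libraries. With LPS on OP9-DL1 they were 3 of 10 against 7.88% of all genes, and 7 of 10 against 16.9% over the 35 libraries. With anti-IgM they were 3 of 10 against 9.4% of all genes, and 5 of 10 against 27.2% over the 35 libraries.

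The effect of the Notch ligand was the question the paired stromas address. Over 7 matched pairs of OP9-DL1 and OP9 groups, 8 of 70 tests of a member passed, against 8.26% of the tests of all genes. The 35 libraries leave 5 of the pairs, and there 8 of 50 passed against 10.8%. Bcl2l11 was higher on OP9-DL1 with anti-IgM at 20 and 68 h, and it was the 1 member of 10 that passed in the mean of the 4 comparisons at 44 and 68 h (all genes: 1.29%; over the 35 libraries Bax passed as well, against 5.14%). Bcl2 and Mcl1 were lower and Bax higher on OP9-DL1 with anti-IgM at 20 h. All OP9 libraries of that comparison were Actb-high, a limit that holds for Bcl2l11 at 20 h as well. With LPS at 44 and 68 h no member passed in limma at an adjusted p below 0.05. Of all genes 0.16% and 0.0512% passed at that threshold (0.672% and 0.141% over the 35 libraries, again with no member). No member had an unadjusted p below 0.05 either, a count not made over all genes.

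Bcl2l11 at 20 h with anti-IgM was 12.8, 16.6 and 12.7 on OP9 and 43.3, 50.3 and 47.1 on OP9-DL1. The groups were far apart, with a log2 difference of 1.68 ± 0.24 (SE; adjusted p = 9.55e-05) that held in the 9 settings that could be run and when each of the 6 libraries was left out in turn. The setting without the Actb-high libraries could not be run, since it leaves no OP9 library of this group. At 44 h, from the values above, OP9-DL1 libraries were all higher but the difference of 0.39 ± 0.24 (SE; adjusted p = 0.789) did not pass. At 68 h it was 1.00 ± 0.24 (SE; adjusted p = 0.0301), and 0.89 ± 0.22 (SE; adjusted p = 0.0157) over the 35 libraries. This call was lost without OP9-DL1 replicate 1, 2 or 3 or OP9 replicate 3 (adjusted p = 0.0855 to 0.123) and with TPM as deposited (adjusted p = 0.0979), with the authors' log2 table (0.0649) and in the fit to its groups alone (0.267). The mean over LPS and anti-IgM at 44 and 68 h was 0.53 ± 0.12 (SE; adjusted p = 0.0183), and 0.47 ± 0.11 (SE; adjusted p = 0.00762) over the 35. It held when each of the 24 libraries was left out in turn and was lost with TPM as deposited and with the authors' log2 table (adjusted p = 0.340 and 0.337), where the size was 0.54 and 0.59. With LPS, Bcl2l11 differed by 0.24 ± 0.24 (SE; adjusted p = 1) at 44 h and 0.47 ± 0.24 (SE; adjusted p = 1) at 68 h. The difference between the effects with LPS and with anti-IgM at 44 h was -0.16 ± 0.34 (SE; adjusted p = 1), and no member passed this test in either library set (all genes: 0.0961%, or 1.4% over the 35 libraries). At an unadjusted p below 0.05 it held 0 members over all and 1 over the 35 libraries, a count not made over all genes. In the fit to these groups alone Bcl2 (1.13, adjusted p = 0.00197) and Bcl2a1d (-0.97, 0.0364) passed, 2 of 10 against 7.53% of all genes.

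Bcl2 at 20 h with anti-IgM was 44, 43.5 and 82.4 on OP9 and 9.62, 10.2 and 8.82 on OP9-DL1. Mcl1 was 155, 115 and 118 and 34, 40.1 and 36.6, and Bax was 87, 247 and 211 and 329, 290.1 and 318. In each the groups did not overlap, with log2 differences of -2.39 ± 0.67 (SE; adjusted p = 0.0154) for Bcl2, -1.77 ± 0.52 (SE; adjusted p = 0.0186) for Mcl1 and 0.91 ± 0.32 (SE; adjusted p = 0.0438) for Bax. With Bcl2l11, 4 of 10 members passed at 20 h with anti-IgM, against 20.1% of all genes. The Bcl2 call was lost without OP9 replicate 3 (adjusted p = 0.0513), and the Mcl1 call without OP9-DL1 replicate 1 or 3 or OP9 replicate 1 (0.0508 to 0.0834). The Bax call was lost without OP9-DL1 replicate 1, 2 or 3 or OP9 replicate 1 (0.0838 to 0.397), with a log2 difference of 0.45 in the last case, without a filter (0.0657) and in the fit to its groups alone (0.201). Stroma type and Actb level cannot be told apart at 20 h with anti-IgM, nor with LPS.

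High Bcl2 and Mcl1 and low Bbc3 moved with the Actb-high state inside other groups too. In the 4 groups at 68 h in which replicate 3 alone was Actb-high, it had more Bcl2 than the mean of the other 2 libraries in 4 of 4, by 3.46 to 13 times. Mcl1 was higher in 4 of 4, by 2.39 to 6.90 times. Bcl2a1d and the Bcl2a1 sum were also higher in 4 of 4, the sum by 1.01 to 2.73 times. Bcl2l11, Bbc3 and Bax were lower in 4 of 4. This count was not made over all genes. At later times with anti-IgM the Bcl2 difference between stromas was -0.98 ± 0.67 (SE; adjusted p = 0.856) at 44 h, where no library was Actb-high and the groups did not overlap, and -1.62 ± 0.67 (SE; adjusted p = 0.196) at 68 h. For Mcl1 it was -0.70 ± 0.52 (SE; adjusted p = 0.889) and -0.82 ± 0.52 (SE; adjusted p = 0.391). The fit to the 6 libraries at 44 h alone called both (adjusted p = 0.00351 for Bcl2 and 0.00809 for Mcl1), beside 16.3% of all genes.

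In unstimulated cells Bcl2a1b and Bcl2a1d were higher on OP9-DL1, by 1.37 ± 0.41 (SE; adjusted p = 0.0115) for the sum of the copies, with overlapping groups. Bcl2a1a did not pass, at -0.77 ± 0.67 (SE; adjusted p = 0.430). The former were 2 of the 10 members that passed there, against 26.8% of all genes. Without unstimulated OP9 replicate 1 the difference was 0.46 and the call was lost (adjusted p = 0.296). For Bcl2a1b it was lost without that library or OP9-DL1 replicate 2 or 3 (adjusted p = 0.0613 to 0.388) and for Bcl2a1d without OP9 replicate 1 (0.20). In the fit to these 6 libraries alone, neither copy nor the sum passed (adjusted p = 0.347 for the sum). Over the 35 libraries 6 members passed against 42.1% of all genes, with Bcl2, Mcl1, Bcl2a1b and Bcl2a1d higher and Bax and Bcl2l1 lower on OP9-DL1. Stroma markers were lower (10 of 10 tested) and B cell markers higher (5 of 7) on OP9-DL1 in the same comparison, and their part in it was not tested.

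With LPS at 20 h, where all OP9-DL1 libraries were Actb-high, Bcl2a1b was 478, 253 and 647 on OP9 and 136, 139 and 168 on OP9-DL1. The OP9-DL1 libraries were all lower, with a log2 difference of -1.53 ± 0.41 (SE; adjusted p = 0.0168), and Bcl2a1b was the 1 member of 10 that passed (all genes: 8.58%). The call was lost without OP9 or OP9-DL1 replicate 1, OP9-DL1 replicate 2 or OP9 replicate 3 (adjusted p = 0.0515 to 0.0853) and in the fit to these groups alone (0.131). The summed copies gave -1.37 ± 0.41 (SE; adjusted p = 0.0333), lost without any OP9-DL1 library or OP9 replicate 1 or 3 (adjusted p = 0.0659 to 0.140). Bbc3 was 46.7, 53.3 and 63.5 on OP9 and 12, 8.01 and 6.69 on OP9-DL1, without overlap and with a difference of -2.51 ± 0.87 (SE; adjusted p = 0.0672) that the fit to these groups alone called (0.0283). With anti-IgM at 44 h no member passed by limma at an adjusted p below 0.05 (all genes: 0.845%, or 5.87% over the 35 libraries). At an unadjusted p below 0.05 there were 0 members over all and 4 over the 35, a count not made over all genes. The limma fit to these 6 libraries alone, none of them Actb-high, called 4 of 10 against 16.3% of all genes: Bcl2 and Mcl1 lower, Bax higher by 0.55 (adjusted p = 0.0110) and Bcl2a1b higher by 0.37 (0.0341) on OP9-DL1. At 68 h the members that passed were 1 of 10 against 1.32% of all genes, and 2 of 10 against 5.37% over the 35 libraries. The second was Bax, higher on OP9-DL1 by 1.00 ± 0.22 (SE; adjusted p = 0.00768).

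Over time few members passed within a culture condition: 1 of 60 tests did, against 2.59% of the tests of all genes, and 6 of 60 against 6.58% over the 35 libraries. Mcl1 rose from 44 to 68 h with LPS on OP9-DL1, from 17.4, 21.3 and 20.04 to 40.5, 45.8 and 148. All libraries at 68 h were higher, and the increase was 1.69 ± 0.52 (SE; adjusted p = 0.0406), the only call among 10 members (all genes: 6.76%; over the 35 libraries 2 of 10 against 13.2%). It was lost without any 44 h library or without the Actb-high 68 h replicate 3 (adjusted p = 0.0877 to 0.337), with log2 differences down to 1.10, and in the fit to its groups alone (0.170). Over the 35 libraries it was 1.07 ± 0.25 (SE; adjusted p = 0.00470), Bcl2l11 passed beside it (0.72 ± 0.22 (SE; adjusted p = 0.0268)), and on OP9, where Mcl1 went from 17.6, 22.4 and 21.9 to 41.4, 48.3 and 107, it was 1.05 ± 0.25 (SE; adjusted p = 0.00535). On OP9 with LPS no member passed from 44 to 68 h (6.88% of all genes) or from 20 to 44 h (1.65%), with 2 and 2 members (not counted over all genes) at an unadjusted p below 0.05 by limma. Over the 35 libraries Mcl1 passed in the former (12.8%) and Bax and Bcl2l11 were lower at 44 than at 20 h (8.93%), by 0.89 and 0.84. With anti-IgM no member passed by limma over all libraries: all genes were at 0.0576% from 20 to 44 h and 0.173% from 44 to 68 h on OP9-DL1 and at 0.0128% from 44 to 68 h on OP9. The shares over the 35 libraries were 1.02%, 3.31% and 0.128%. At an unadjusted p below 0.05 over all libraries there were 0, 1 and 1 members, a count not made over all genes. Bcl2l1 went from 53.1, 63.2 and 71.9 at 44 h to 25.1, 26.6 and 26 at 68 h with anti-IgM on OP9-DL1, without overlap. Its difference of -1.24 ± 0.60 (SE; adjusted p = 0.749) passed over the 35 libraries (-1.26, adjusted p = 0.0127). The fit to these groups alone called Bcl2l1, Mcl1 and Bcl2a1b (adjusted p = 0.00784, 0.0457 and 0.0349), 3 of 10 against 7.48% of all genes. The fit with LPS on OP9 from 44 to 68 h alone called Bcl2a1d (0.0338), beside 6.81% of all genes.

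Blimp1 marks B cells on the way to plasma cells, and the Blimp1+ cells carried 0.283 to 0.318% of TPM in 6 plasma cell markers, against 0.0186 to 0.0223% in unstimulated cells on the same stroma. In them Mcl1 was 62.9, 66.7 and 84.6 and Bcl2l11 was 20.7, 17.5 and 22.5. Both were higher than in every OP9-DL1 library with LPS at 44 h. The differences were 1.81 ± 0.52 (SE; adjusted p = 0.0163) for Mcl1 and 0.78 ± 0.24 (SE; adjusted p = 0.0291) for Bcl2l11, 2 of 10 against 12.3% of all genes, and 2 of 10 against 24.5% over the 35 libraries. The Mcl1 call was lost without LPS replicate 1 or Blimp1+ replicate 3 (adjusted p = 0.0615 to 0.0704). The Bcl2l11 call was lost without LPS replicate 1 or 2 or Blimp1+ replicate 1 or 3 (adjusted p = 0.0610 to 0.183) and with TPM as deposited, where the difference fell to 0.39 (adjusted p = 0.726). Quantile normalization (adjusted p = 0.177) and the authors' log2 table (0.431) did not call it either. Since the labels give no time for the Blimp1+ cells, time and Blimp1 state cannot be told apart here. Against LPS at 68 h no member passed by limma (all genes: 2.84%), with 2 at an unadjusted p below 0.05, a count not made over all genes. Over the 35 libraries (all genes: 3.63%) Bcl2l1 was higher, by 1.10 ± 0.31 (SE; adjusted p = 0.0466).

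Against unstimulated cells on OP9-DL1, the members that passed were 4 of 10 against 14.5% of all genes, and 6 of 10 against 30.4% over the 35 libraries. All of them were higher in the Blimp1+ cells. Bcl2l1 was 77.8, 76 and 65.5 in them, above all unstimulated libraries, by 2.42 ± 0.60 (SE; adjusted p = 0.00429). Bcl2l11 differed by 1.12 ± 0.24 (SE; adjusted p = 0.00104), Bcl2a1b by 1.40 ± 0.41 (SE; adjusted p = 0.0175) and Bbc3 by 2.61 ± 0.87 (SE; adjusted p = 0.0383). Bbc3 was 43.9, 58.3 and 41.1 in the Blimp1+ cells, in the range of the LPS libraries, and its call was lost when each one of the 6 libraries was left out in turn (Blimp1+ and unstimulated replicates 1, 2 and 3; adjusted p = 0.0798 to 0.115). The Bcl2a1b call was lost without Blimp1+ replicate 1 or 3 or unstimulated replicate 1 (adjusted p = 0.0531 to 0.103). With TPM as deposited none of the 4 passed, at adjusted p = 0.104 for Bcl2l1, 0.383 for Bcl2l11, 0.159 for Bcl2a1b and 0.141 for Bbc3, and the authors' log2 table called none of them either (0.0566 to 0.213). Bax (0.75 ± 0.19 (SE; adjusted p = 0.00418)) and Bcl2a1d (1.49 ± 0.48 (SE; adjusted p = 0.0202)) passed as well over the 35 libraries. Bcl2 in the Blimp1+ cells was 32.4, 38.3 and 35.6, a difference of 0.07 ± 0.67 (SE; adjusted p = 0.985) from unstimulated cells.

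Of 15 other Bcl2 family genes, 12 were tested. Bnip3l, a mitophagy receptor with a BH3-like stretch, passed in all 4 comparisons of the stimuli, with opposite signs on the stromas at 44 h: LPS minus anti-IgM was -1.06 on OP9 and 1.82 on OP9-DL1, and the difference of the 2 was 2.88 (adjusted p = 0.00203). Between the stimuli on OP9-DL1 at 68 h, Bnip3l (1.92) and Bcl2l15 (1.70) were the 2 that were higher with LPS, and none was lower (all genes: 4.27% in either direction). The list had a median of -0.01, beside 0.10 for all genes. Against unstimulated cells on OP9, 2 higher and 1 lower of the 12 passed with LPS, against 31.1% of all genes in either direction. Pmaip1, the BH3-only gene for Noxa, rose by 2.57, Bcl2l12 by 1.03, and Bok changed by -3.56. With anti-IgM on OP9-DL1, Bmf, a BH3-only gene, was the only one of the 12 that passed (1.49), against 9.4% of all genes. Bmf (1.85) and Bnip3l (1.19) were higher in Blimp1+ cells than with LPS at 44 h.

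All 20 genes of the caspase, apoptosome and IAP list were tested. Against unstimulated cells at 68 h, Birc5, which encodes the mitotic protein survivin, rose in all 4 comparisons, by 1.99 to 4.13. It was the only one of the 20 that passed with LPS on OP9-DL1 (all genes: 7.88%). With anti-IgM on that stroma Cycs, the gene for cytochrome c, passed as well (0.88; all genes: 9.4%). The list's median difference was -0.01, beside -0.13 for all genes. Cycs was higher with LPS than with anti-IgM on OP9 at both times, by 1.64 and 0.94. Cycs was also higher on OP9-DL1 than on OP9 with anti-IgM at 44 h (1.11) and 68 h (0.99), the only one of the 20 that passed in either (all genes: 0.845% and 1.32%).

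Of 14 p53 target genes 13 were tested, and they were read beside Bbc3 and Bax, which p53 also drives. With LPS against anti-IgM on OP9-DL1 at 68 h, 5 higher and 0 lower passed, against 4.27% of all genes in either direction, with Cdkn1a (2.99), the cell cycle inhibitor p21, Phlda3 (2.20) and Zmat3 (1.93) among them. The list's median was 1.07, beside 0.10 for all genes. On OP9 at 44 h, 4 higher and 2 lower passed (all genes: 8.35%), including Cdkn1a (2.29), Phlda3 (1.91) and Trp53inp1 (-1.99). With LPS against unstimulated cells on OP9-DL1, 6 higher and 0 lower passed (all genes: 7.88%), and Fas, the death receptor, rose by 2.49. On OP9 the same comparison gave 0 higher and 5 lower beside 31.1% of all genes, with Cdkn1a at -2.55. The reference there is the unstimulated OP9 group, whose libraries held the most stroma marker RNA.

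All 12 genes of the BAFF and CD40 receptor list were tested. With LPS against anti-IgM, Cd40, the receptor for T cell help, was higher on OP9-DL1 at 44 h (2.01) and 68 h (2.07) and on OP9 at 44 h (1.27). Tnfrsf13b, which encodes the BAFF and APRIL receptor TACI, was higher with LPS on OP9-DL1 at both times (each 1.51). None of the 12 was lower in any of the 4 comparisons, in which 4.97% of the tests of all genes passed in either direction. The list had a median of 0.32 on OP9-DL1 at 68 h. The survival kinase gene Pim2 was higher with LPS on OP9 at 68 h (2.46). With anti-IgM on OP9-DL1 against unstimulated cells, none of the 12 rose and Map3k14, the gene for the NF-kB-inducing kinase, was lower (-1.34), against 9.4% of all genes in either direction.

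The genes whose pattern was most like each member were ranked by Pearson's r of log2 values over the 15 group means among 9225 candidates, as a description without a test. The group means share libraries, depth and the size factors. Each gene is given with 2 values, r over the 15 groups and r over the 13 groups with libraries that were not Actb-high. For Bcl2l11 the highest was Pdcd1, the gene for the inhibitory receptor PD-1 (0.93 and 0.93), and next were Ube2a (0.83 and 0.77) and Pdk3 (0.83 and 0.82). For Bcl2 they were Usp3 (0.92 and 0.92), Lpcat1 (0.90 and 0.94) and Fbxl22 (0.90 and 0.81). For Mcl1 they were Tram1 (0.94 and 0.90), Btg2 (0.93 and 0.87) and Fam134b (0.91 and 0.88). For Bcl2l1 they were Cptp (0.84 and 0.87), Cenpw (0.84 and 0.70) and Gins2 (0.84 and 0.69). For Bax they were Chchd6 (0.91 and 0.87), Atf4 (0.90 and 0.91) and Rps27l (0.90 and 0.92). For the Bcl2a1 sum they were Cdca7 (0.91 and 0.94), Dtl (0.90 and 0.95) and Cdc45 (0.88 and 0.93), 3 genes of DNA replication and the S phase. Among the members themselves the pairs farthest from 0, with r over the 13 groups in parentheses, were Mcl1 and Bax at -0.77 (-0.73), Bax and Bbc3 at 0.75 (0.71) and Bcl2 and Bcl2l11 at -0.62 (-0.52).

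The genes outside the Bcl2a1 cluster lie on separate chromosomes or far apart (GENCODE M21, GRCm38): Bcl2 at chr1:106538178-106714274 on the minus strand, Bcl2l11 at chr2:128126038-128162547 on the plus strand, Bcl2l1 at chr2:152780668-152831728 on the minus strand, and Mcl1 at chr3:95658788-95663176 on the plus strand. Bbc3 lies at chr7:16308393-16318205 on the plus strand, Bax at chr7:45461697-45466898 on the minus strand, and Bak1 at chr17:27019810-27029009 on the minus strand. All 10 are protein-coding in this annotation.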

How the data were processed

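The files hold whole-gene values of 45 libraries. The deposited table gives TPM per gene symbol as computed by the authors, and a second deposited table gives log2 values, which the numbers show to be log2 of estimated counts scaled to the library total. Tools and builds given in the submitters' processing notes are kallisto and limma, and GRCm38 and mm10, with no version of a tool. Per the labels' protocols, amplification was by SMART-seq, followed by Nextera XT. How kallisto's transcripts were summed to genes is not given in the sources used here.

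Each library was scaled by a median-ratio size factor (0.418 to 1.33) computed from the 7096 genes at 1 TPM or more in all 45 libraries. The log2 of scaled TPM plus 1 was then taken, which understates the change of low genes. The test covered 15614 of 30317 symbols, those reaching 1 TPM in 3 or more libraries. One limma model (limma 3.58.1, R 4.3.3; trend and robust moderation) of 15 group means was fitted to all 45 libraries, and p-values were adjusted by Benjamini-Hochberg over all genes within each of 26 comparisons. A call is an adjusted p below 0.05. Fold changes are on the log2(scaled TPM + 1) scale. Tested on simulated data, the model recovered the mean size of known changes but left many of the changed genes uncalled, so a missed threshold does not show that values did not differ. A second fit used the 35 libraries whose Actb is at most 10000 TPM, and another replaced the Bcl2a1 rows by their sum. Ratios within a library and likenesses are described without a test. The listed TPM sum to 92.1 to 96.0% of 1e+06.

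The members, marker lists, gene lists and the Actb limit were chosen with earlier results of these data known. By the rule for named genes all members stand in every comparison, called or not (the map of log2 differences shows them), and the text names each one called over all libraries or over the 35; from each other list, up to 3 called genes with the largest change are named per comparison described, and 3 genes per member for likeness. Some results that these lists hold are not reported here. Marker lists covered B cells, plasma cells, stroma, T cells and myeloid cells. Depth was 3.07 to 29.1 estimated reads in units of 1e+06, and Bcl2a1a and Bak1, with medians of 2.72 and 24.2 estimated reads per library, are measured least precisely. Replicates differed by more than sampling noise in every group. Same-numbered libraries deviated together (every r over 0.1) in 4 of 24 pairs of groups, all at 68 h, of which each group has an Actb-high replicate 3; the labels do not say what a number marks. Motifs were searched in RefSeq promoter windows (GRCm38.p6), and coding sequences come from GENCODE M21. Unused columns of samples numbered 0. Alternatives were other scalings, filters, pseudocounts and the authors' log2 table, a replicate block, fits to the compared groups alone, and leaving out each library or the Actb-high libraries.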

Additional observations from a re-analysis of the deposited data

Results flagged for a closer look

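Pairs of matched effects were marked where every library moved one way under one condition and the opposite way under the other. Over 12 pairs of comparisons and 11 features (10 members and the Bcl2a1 sum) this gave 10 values. Each opposite pair is listed from both of its sides, and the near-identical Bcl2a1 copies and their sum are not separate results. The count was not made over all genes, so it does not set these members apart from other genes. Bbc3 was lower on OP9-DL1 than on OP9 with LPS at 20 h (-2.51 on the log2 scale) and higher with anti-IgM at 20 h (2.15); the difference was not tested, and in each comparison the low group is the one whose 3 libraries are all Actb-high. With LPS, the OP9-DL1 minus OP9 difference of 2 Bcl2a1 copies and of the sum was below 0 at 44 h and above 0 at 68 h without overlap: -0.58 and 0.70 for Bcl2a1b, -0.70 and 0.55 for Bcl2a1d, and -0.64 and 0.63 for their sum, and the difference between times was not tested. Bcl2a1d was higher with LPS than with anti-IgM on OP9 at 44 h (0.45) and lower on OP9-DL1 (-0.52). The test of that difference gave -0.97 ± 0.74 (SE; adjusted p = 1) by limma over all libraries and did not pass, and in the fit to these groups alone it passed (adjusted p = 0.0364).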

How the results depend on the processing

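Each of 286 results (10 members and the Bcl2a1 sum in 26 comparisons, 46 of them called) was recomputed under 10 other settings and without each library that its groups contain. No called value changed sign in any of these. Over the settings 2671 values kept their side of the threshold, 62 lost and 79 gained a call, and over the left-out libraries 1896 kept it, 68 lost and 16 gained one. Of the results not called in either fit, 85 and 130 had the other sign.

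With TPM as deposited and with the authors' log2 table, Blimp1+ calls were 2 and 1 (6 as reported), against 10 and 6.64% of all genes (9.88% as reported). Those between LPS and anti-IgM were 5 and 5 (8), against 3.61 and 3.13% (4.97%). Those of the mean Notch ligand effect were 0 and 0 (1), against 0.57 and 0.378% (1.29%). Those over time were 2 and 2 (1), against 1.41 and 1.48% (2.59%). Those 2 settings moved the median of all genes in a comparison by -0.42 to 0.36 and by -0.48 to 0.50 log2 units. Quantile normalization and the absence of a filter left 0 calls over time, against 2.2 and 1.15% of all genes. Fits to the compared groups alone gave 9 calls for the stimuli (15; all genes 9.63%), 12 between stimuli (8; 12.2%), 9 for Blimp1+ cells (6; 22.8%), 4 over time (1; 2.82%), 2 for the mean Notch ligand effect (1; 4.5%) and 2 for its difference between stimuli (0; 7.53%). For the Notch ligand they gave 8 calls as before (all genes 4.43%), with 5 lost and 5 gained. Without the Actb-high libraries calls were 24 for the stimuli (all genes 30.8%), 18 between stimuli (10.8%), 6 over time (6.58%), 2 for the mean effect (5.14%) and 8 for the Notch ligand (10.8%), against 3 (5.83%) over the same 5 comparisons with all libraries. Leaving out 1 library gave 2 to 9 Blimp1+ calls (2 without Blimp1+ replicate 3 and 3 without replicate 1), 6 to 14 for the Notch ligand (14 without unstimulated OP9 replicate 3), 1 to 1 for its mean effect, 0 to 0 for its difference between stimuli, 13 to 18 for the stimuli, 6 to 12 between stimuli, 0 to 3 over time (0 without any OP9-DL1 library with LPS at 44 h, 2 without OP9 with anti-IgM at 68 h replicate 3, and 3 without OP9 with LPS at 20 h replicate 2 or unstimulated OP9 replicate 1 or 3) and 6 to 7 for the Bcl2a1 sum. The shares of all genes were not computed for the fits without 1 library. The replicate block gave 2 calls over time (all genes 2.79%) and changed 7 single results, all of which gained a call. In the pairs of groups whose numbers do not pair, these were Bbc3 at 20 h between stromas with LPS (adjusted p = 0.0198) and anti-IgM (0.0277) and between stimuli on OP9-DL1 at 44 h (0.0177), and Bcl2a1d, Bcl2 and Mcl1 in 1 comparison each; where the numbers pair, Bbc3 between stimuli on OP9 at 68 h was the only call it changed. Depth limits Bcl2a1a and Bak1 most.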
